A study of Mus musculus with 4 samples.

Results

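The genes described here encode the receiving side of cytokine signalling in mouse T cells: cytokine receptor chains, the Janus kinases (JAKs) bound to them, the transcription factors STAT2 and STAT3, and the feedback genes of the SOCS, CISH and PIM families. All 38 listed genes were found among the 23480 gene identifiers of each library through a RefSeq gene table, and 35 of them had enough reads to be tested. The libraries were 2 from T cells kept under Th9 conditions with TL1A (labelled Th9+TLA1) and 2 from T cells kept under Th9 conditions alone (labelled Th9). Th9 conditions are those that favour helper T cells making interleukin 9, and TL1A is a TNF superfamily cytokine that T cells bind through the receptor DR3. TLA1 in the labels is taken to be the TL1A of the title. Strain, age, culture time and dose were not stated. Nor do the labels say that replicates are separate animals or cultures, and the p-values therefore describe library-to-library spread that may be purely technical.

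Receptors for interleukins and interferons have no kinase of their own. When a cytokine brings receptor chains together, the JAKs bound to their tails phosphorylate each other, the receptor and then STAT proteins, which dimerise, enter the nucleus and switch on genes. Among those genes are SOCS3, SOCS1 and CISH, which bind the receptor or the JAK and dampen the same signal, and the PIM kinases, which promote survival and growth. In T cells this wiring reads interleukins 2, 4, 7, 9, 15 and 21 through the shared common gamma chain, and it helps set the helper T cell type.

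With TL1A, Socs3, Jak2 and Pim2 rose and no gene of the set fell. Socs3 rose 2.82-fold, Pim2 1.96-fold and Jak2 1.90-fold. The test was a limma fit of log2(CPM + 1), and a call needed an adjusted p (Benjamini-Hochberg, 10324 tested genes) below 0.05. CPM, the deposited unit, scales the reads of each library to the same total. These 3 were 8.57% of the 35 tested members, and over all tested genes 1.14% were called. All 3 were called higher, as were 0.891% of all tested genes, and 0.252% of those were called lower. At an unadjusted limma p under 0.05, 9 members were higher and 1 was lower (Socs2), against 8.54% and 8.14% of all tested genes (16.7% in either direction). On whole reads recovered from the CPM, edgeR's quasi-likelihood test called Socs3 and Jak2 (1.07% of all tested genes called), the same test with adjusted deviances called Socs3, Jak2 and Pim2 (1.56%), and DESeq2 called these 3 with Il2rg and Il21r (2.64%). None of the 16 tested receptor chains was called, although 14 of them had log2 fold changes above 0 (4 had an unadjusted limma p under 0.05, all higher; edgeR's quasi-likelihood test also called 0). The median log2 fold change was 0.35 for the receptor chains, 0.09 for the 19 intracellular members and -0.01 for all tested genes. In the deposited CPM both Th9+TLA1 libraries lay above both Th9 libraries for 13 members and below them for 8, or 37.1% and 22.9% of those tested, against 19.1% and 29% of all tested genes. Levels are CPM as deposited, and overlap between groups was judged on them. Fold changes are on the log2(CPM + 1) scale after TMM scaling, which understates the change of low genes. That scaling can make or remove an overlap where the gap is small, as for Ptpn6, Ifngr1 and Il17ra.

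**Figure D1:**
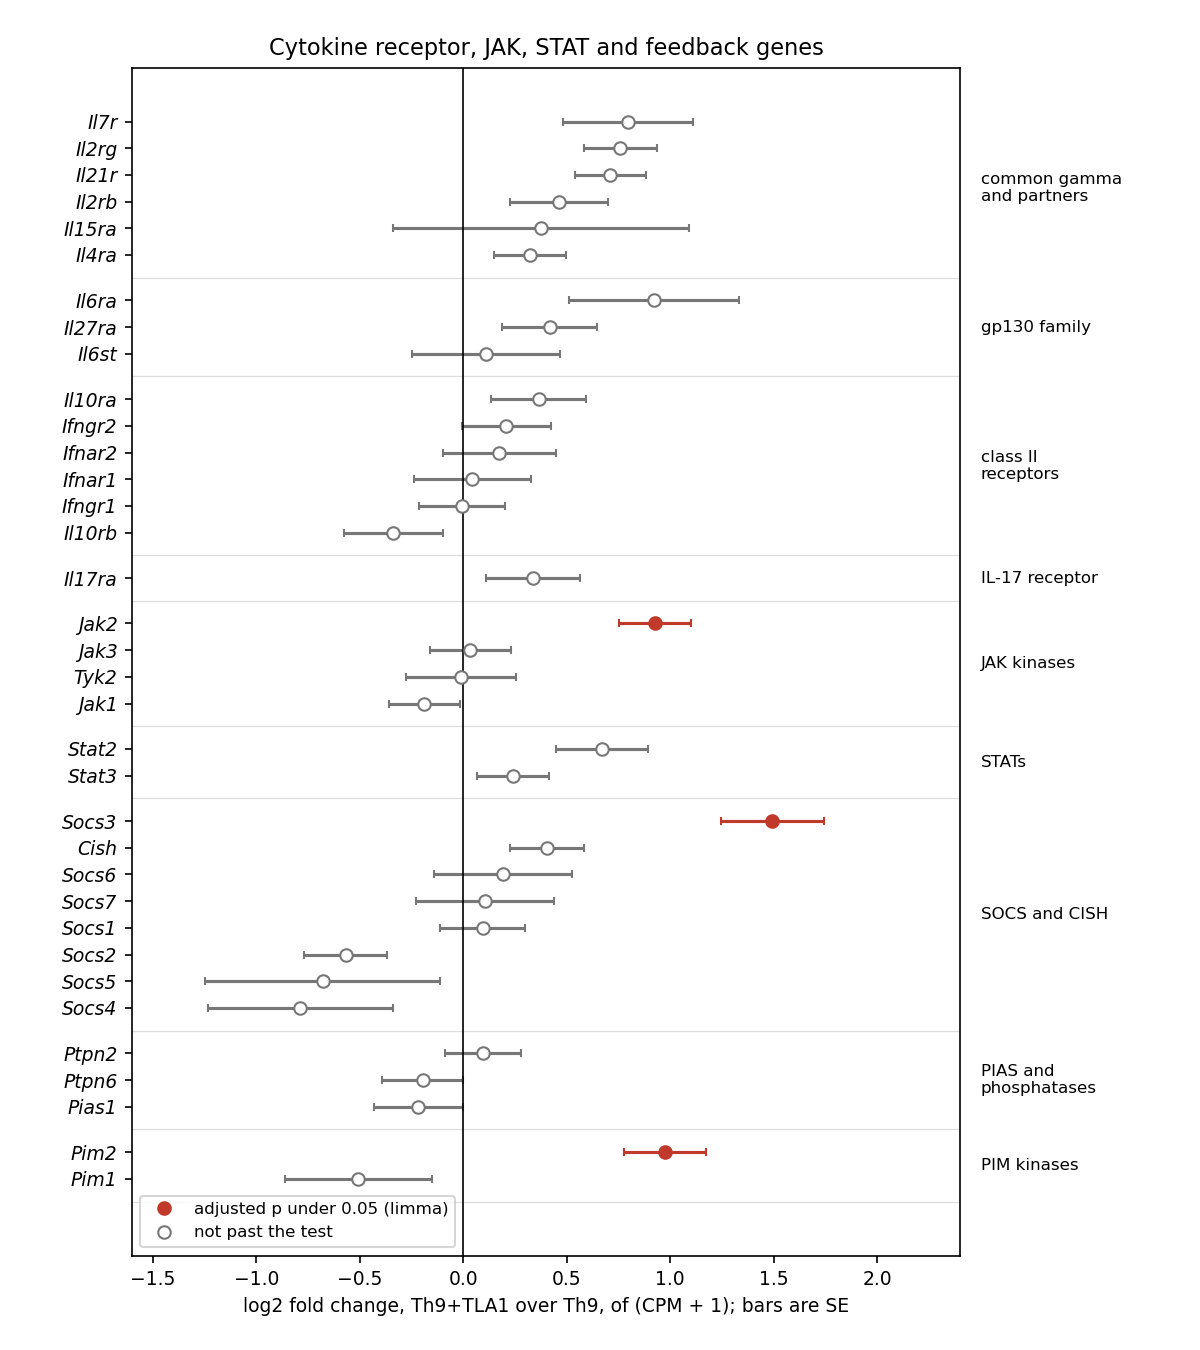
Log2 fold change of (CPM + 1), Th9+TLA1 over Th9, for the 35 tested members by role (points; bars are SE, n = 2 libraries per group). Socs3, Jak2 and Pim2, filled, passed the limma test, and the receptor chains at the top lie mostly right of 0 without passing it.

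The promoters of the called genes and of Cish, the most abundant relative of Socs3 by CPM, are shown because STAT proteins act on their targets through short promoter sequences. They come from RefSeq (GRCm38.p6, the assembly of mm10) and run 250 bases before to 50 after an annotated start, 5′ to 3′ on the gene's strand. They are chr11:117969317-117969616 (minus strand) for Socs3, chr9:107296409-107296708 (plus) for Cish, chr19:29251553-29251852 (plus) for Jak2 and chrX:7878056-7878355 (plus) for Pim2. Capitals mark matches to TTCNNNGAA, the core of a STAT site (GAS).
Socs3: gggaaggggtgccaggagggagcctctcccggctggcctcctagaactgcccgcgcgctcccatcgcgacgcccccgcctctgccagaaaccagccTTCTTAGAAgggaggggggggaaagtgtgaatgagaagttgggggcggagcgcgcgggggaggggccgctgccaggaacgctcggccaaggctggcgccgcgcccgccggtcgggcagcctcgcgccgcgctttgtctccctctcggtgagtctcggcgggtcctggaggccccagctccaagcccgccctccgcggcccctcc
Cish: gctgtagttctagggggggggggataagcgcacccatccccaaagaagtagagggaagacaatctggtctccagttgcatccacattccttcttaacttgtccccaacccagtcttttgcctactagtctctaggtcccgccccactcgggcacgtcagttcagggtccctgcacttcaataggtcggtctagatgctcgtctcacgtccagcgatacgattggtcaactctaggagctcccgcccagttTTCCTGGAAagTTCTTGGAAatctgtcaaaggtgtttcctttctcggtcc
Jak2: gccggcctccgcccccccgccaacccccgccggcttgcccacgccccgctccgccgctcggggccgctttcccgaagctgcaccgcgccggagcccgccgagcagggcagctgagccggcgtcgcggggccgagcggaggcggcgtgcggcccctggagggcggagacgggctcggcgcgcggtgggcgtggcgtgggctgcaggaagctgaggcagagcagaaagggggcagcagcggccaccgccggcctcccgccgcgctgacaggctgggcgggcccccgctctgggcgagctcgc
Pim2: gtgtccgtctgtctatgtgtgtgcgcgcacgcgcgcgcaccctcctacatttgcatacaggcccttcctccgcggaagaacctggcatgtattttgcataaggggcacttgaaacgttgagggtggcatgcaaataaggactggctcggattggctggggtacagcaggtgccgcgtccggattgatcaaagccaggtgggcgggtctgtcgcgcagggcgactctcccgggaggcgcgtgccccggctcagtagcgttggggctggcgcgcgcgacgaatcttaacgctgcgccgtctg
The motif was searched on both strands, as were TTC and GAA set 4 bases apart (a STAT site with a longer spacer), TGANTCA (AP-1) and GGGAN followed directly by TTTCC (NF-kB), and no match to one overlapped a match to another in a member's promoter. The Socs3 window held 1 GAS match, TTCTTAGAA, from 154 to 146 bases before the start. That annotated start lies inside the Socs3 locus, whose outer end is at 117970336. The Cish, Jak2 and Pim2 windows are set at the outer start of the gene. The Cish window held 2, TTCCTGGAA and TTCTTGGAA, just after the start. The Jak2 and Pim2 windows held no match to any of the 4 motifs, which says only that these letters are not in these windows. Promoters in the table covered 28 of the 38 members with 30 windows, of which 5, or 16.7%, held a GAS match, against 8.30% of all 32851 windows. The other 3 of these were those of Il7r, Ifnar1 and Ifnar2. The longer-spaced form was in 6.67% of the members' windows, those of Ifngr2 and Stat2, against 6.95% of all. An AP-1 match was in the windows of Il15ra and Il17rb, 6.67% against 7.81% of all, and the NF-kB letters were in that of Ifngr2, against 0.411% of all windows.

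The libraries held 2979482 and 3081187 reads in genes for Th9+TLA1 and 4041633 and 3167270 for Th9. A floor of 3 reads therefore corresponded to 0.742 to 1.01 CPM. This floor is roughly what a value of 0 can hide by counting error, not a hard limit. The 9 T cell markers were present in all libraries, with summed levels of 4042 and 3815 CPM in Th9+TLA1 and 2955 and 3402 CPM in Th9. Among them Cd5 was called higher. The myeloid list (Lyz2, Cd14, Csf1r and Mpeg1 at 0 in all libraries) summed to 0 in both Th9+TLA1 libraries and to 2.23 and 0.316 CPM in Th9, and all 4 erythroid markers were at 0. The 5 B cell markers summed to 28.9 and 29.2 CPM in Th9+TLA1 and 10.4 and 12.9 CPM in Th9, nearly all of it Cd79b, while Ms4a1 and Pax5 were at 0. The dendritic list summed to 15.4 and 8.76 CPM in Th9+TLA1 and 5.69 and 3.16 CPM in Th9, most of it Zbtb46, with Siglech at 0. The 2 CD8 T cell markers summed to 9.73 and 10.1 CPM in Th9+TLA1 and 7.92 and 13.3 CPM in Th9, mostly Cd8b1. The NK cell and mast cell or basophil lists reached at most 5.05 CPM in any library, with 3 of 4 and 4 of 5 genes at 0 throughout. The T cell, B cell and dendritic sums moved in the direction of the receptor chains below, and their part in those values was not tested. In bulk RNA, fewer cells that express a gene and less RNA per cell cannot be told apart. Exons of 14 members share bases with another annotated gene, and the library kit did not mark strand, so reads of such pairs can be mixed.

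Among the receptor chains, the common gamma family and its partners held the 4 most abundant genes per kilobase of merged exons, Il2rb, Il2rg, Il4ra and Il21r, in that order in every library. Its 6 tested members all had log2 fold changes above 0, with a median of 0.59, and none was called. Il2rg encodes the common gamma chain itself, shared by the receptors for interleukins 2, 4, 7, 9, 15 and 21. It had 714 and 662 CPM in Th9+TLA1 libraries and 404 and 463 CPM in Th9 libraries. Both Th9+TLA1 values were well above both Th9 values. Its log2 fold change of 0.76 ± 0.18 (SE) missed the threshold (limma adjusted p = 0.0704). Its locus (chromosome X, 101264385 to 101268255) shares exon bases with the annotated gene Gm20489 on the same strand.

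Il21r, the chain that binds interleukin 21, had 403 and 376 CPM in Th9+TLA1 and 260.0 and 247 CPM in Th9. The replicates of each group lay close together and the groups did not overlap, with a log2 fold change of 0.71 ± 0.17 (limma adjusted p = 0.0756). DESeq2 on reads recovered from the CPM called both genes, at adjusted p = 0.00511 for Il2rg and 0.0122 for Il21r, while edgeR and the scaling alternatives did not. Without Th9 replicate 2 limma called Il2rg (adjusted p = 0.0157), but not with the filter also rerun.

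Il2rb, which signals for interleukins 2 and 15, had 1334 and 1646 CPM in Th9+TLA1 and 915 and 1435 CPM in Th9. The groups overlapped, since Th9 replicate 2 lay above Th9+TLA1 replicate 1, and the log2 fold change was 0.46 ± 0.24 (limma adjusted p = 0.357). Without Th9 replicate 2 the log2 fold change was 0.84 and Il2rb was called (limma adjusted p = 0.0198), but not when the filter was also rerun (0.125). Il4ra, the signalling chain for interleukins 4 and 13, had 981 and 1059 CPM in Th9+TLA1 and 837 and 900.1 CPM in Th9, a small gap with no overlap (log2 fold change 0.32 ± 0.17, limma adjusted p = 0.378). Il7r, a receptor of naive and memory T cells, had 58.7 and 94.4 CPM in Th9+TLA1 and 36.4 and 56.2 CPM in Th9. The lower Th9+TLA1 library lay only just above the higher Th9 library, and the log2 fold change of 0.80 ± 0.31 did not pass (limma adjusted p = 0.236).

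Il9r, Il13ra1 and Il15ra were scarce. Il9r, through which interleukin 9 acts, had 0 reads in both Th9+TLA1 libraries and 5 and 0 reads in the Th9 libraries. By the floor of 3 reads, a count of 0 here allows roughly up to 1.01 CPM. Il9, the gene of the ligand, rose to 2879 and 2683 CPM in Th9+TLA1, against 1560 and 1445 CPM in Th9. Il13ra1, the partner of the interleukin 4 receptor in the type of receptor that binds interleukin 13, had 2 and 10 reads in Th9+TLA1 and 0 and 2 reads in Th9. Neither receptor gene was tested, because their counts were below the filter. Il15ra, which presents interleukin 15, passed the filter with 4.03 and 2.92 CPM in Th9+TLA1 and 3.46 and 1.89 CPM in Th9, overlapping ranges.

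The gp130 family showed its widest spread in the Th9+TLA1 group. Il6ra, which binds interleukin 6, had 23.5 and 52.9 CPM in Th9+TLA1 and 18.3 and 20.5 CPM in Th9. The groups did not overlap, but 1 Th9+TLA1 library held most of the gap (log2 fold change 0.92 ± 0.41, limma adjusted p = 0.288; 0.36 without Th9+TLA1 replicate 2). Il6st, which encodes the shared chain gp130, had 40.9 and 96.4 CPM in Th9+TLA1 and 75.2 and 51.1 CPM in Th9. The Th9 values lay between the Th9+TLA1 values. Th9+TLA1 replicate 2 was the high library for both genes. Il27ra, which pairs with gp130 for interleukin 27, had 94.6 and 89.3 CPM in Th9+TLA1 and 66.3 and 80.5 CPM in Th9 (log2 fold change 0.42 ± 0.23, limma adjusted p = 0.396).

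The class II receptor chains, which serve interferons and interleukin 10, differed little between the groups. Their 6 log2 fold changes lay between -0.34 and 0.36 with a median of 0.11, and none was called (0 at an unadjusted limma p under 0.05). Ifngr1, which binds interferon gamma, had 103 and 98.3 CPM in Th9+TLA1 and 105 and 110.2 CPM in Th9. Its partner Ifngr2 had 93.3 and 92.8 CPM in Th9+TLA1 and 92.3 and 79.6 CPM in Th9. Ifngr1 was lower and Ifngr2 higher in Th9+TLA1 without overlap, both by little, with log2 fold changes of -0.01 ± 0.21 and 0.21 ± 0.21.

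Ifnar1 and Ifnar2, the chains of the type I interferon receptor, overlapped between the groups, with 66.5 and 54.5 CPM of Ifnar1 and 78.2 and 63.9 CPM of Ifnar2 in Th9+TLA1, against 51.0 and 75.8 CPM and 86.4 and 51.5 CPM in Th9. Il10ra, which binds interleukin 10, had 95.0 and 139 CPM in Th9+TLA1 and 96.5 and 93.1 CPM in Th9, where 1 Th9+TLA1 library stood above the rest (log2 fold change 0.36 ± 0.23). Il10rb, the chain shared with the receptors for interleukin 22 and type III interferons, had 52.7 and 64.6 CPM in Th9+TLA1 and 79.7 and 78.0 CPM in Th9. Both Th9+TLA1 values were the lower ones, and the log2 fold change of -0.34 ± 0.24 did not pass (limma adjusted p = 0.517).

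The interleukin 17 receptor family signals through the adaptor Act1 and not through JAKs. Il17ra, its common chain, had 105 and 94.1 CPM in Th9+TLA1 and 98.0 and 71.7 CPM in Th9, with overlapping groups (log2 fold change 0.34 ± 0.23, limma adjusted p = 0.491). Il17rb, the chain for interleukin 25, was below the filter, with 0 and 8 reads in Th9+TLA1 and 7 and 7 reads in Th9.

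**Figure D2:**
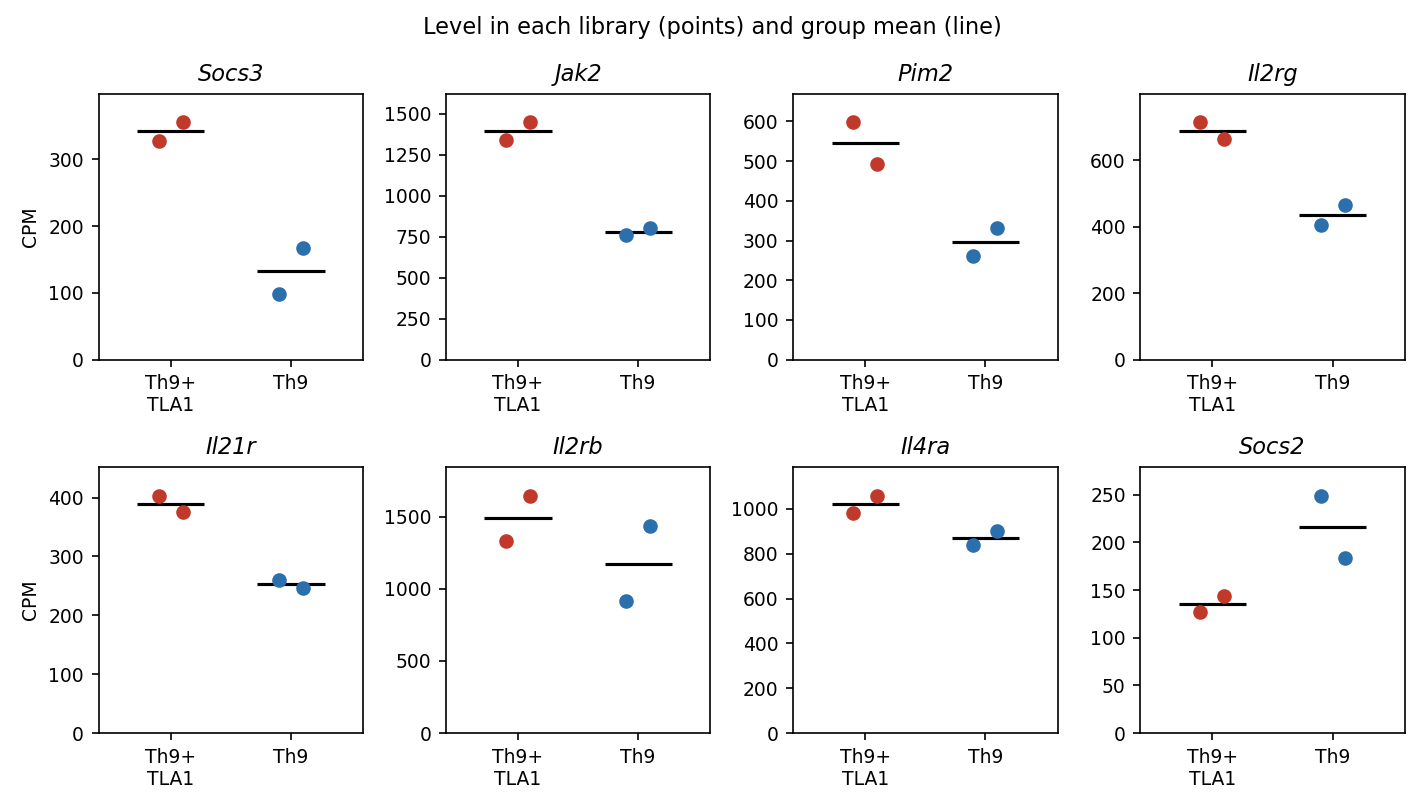
CPM as deposited in each library (points) and group mean (line) for 8 members, with Th9+TLA1 left of Th9 and axes from 0. Socs3, Jak2, Pim2, Il2rg, Il21r and Il4ra do not overlap and are higher in Th9+TLA1, Socs2 does not overlap and is lower there, and Il2rb overlaps.

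Of the 4 Janus kinases, Jak2, which serves the receptors for interferon gamma, interleukin 12 and interleukin 3 among others, rose. It had 1343 and 1450.4 CPM in Th9+TLA1 libraries and 758 and 806 CPM in Th9 libraries. Both replicate pairs were tight and the groups lay far apart, with means of 1396 ± 76.3 and 782 ± 34.3 CPM (SD). The log2 fold change of Jak2 (Entrez 16452, chromosome 19, 29251803 to 29313095) was 0.93 ± 0.17 (SE, n = 2 per group, limma adjusted p = 0.0282). Jak1, which pairs with the receptor chains of the common gamma, gp130 and class II families, had 580 and 517 CPM in Th9+TLA1 and 651 and 678 CPM in Th9. Its Th9+TLA1 values were the lower ones, but by little (log2 fold change -0.19 ± 0.17, limma adjusted p = 0.638). Jak3, the kinase of the common gamma chain, had 259.8 and 336 CPM in Th9+TLA1 and 284 and 332 CPM in Th9. Tyk2, the fourth kinase, had 44.0 and 58.4 CPM in Th9+TLA1 and 56.2 and 52.7 CPM in Th9. The groups overlapped for both, with log2 fold changes of 0.03 ± 0.20 and -0.01 ± 0.27.

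Compared per kilobase of merged exons, Jak2 was the most abundant Janus kinase in every library, followed by Jak1, Jak3 and Tyk2 in that order. Jak2 made up 66.4% and 66.9% of the summed CPM per kb of the 4 kinases in Th9+TLA1, against 49.9% and 49.5% in Th9. Jak1 made up 19.9% and 16.6% in Th9+TLA1, against 29.8% and 28.9% in Th9. Jak2 was not called without Th9+TLA1 replicate 1 (limma adjusted p = 0.182) or without Th9+TLA1 replicate 2 (0.130), where the log2 fold change was 0.98 and 0.88, nor without a filter on low counts (0.0994). With the filter rerun on the 3 libraries left, it was also missed without Th9 replicate 2 (0.0772).

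STAT2, which carries type I interferon signals, and STAT3, which carries those of interleukins 6, 10, 21 and 27, gave no call. Stat2 had 149 and 111 CPM in Th9+TLA1 and 87.6 and 84.0 CPM in Th9, with no overlap (log2 fold change 0.67 ± 0.22, limma adjusted p = 0.166). Stat3 had 1413 and 1349 CPM in Th9+TLA1 and 1235 and 1255 CPM in Th9, also without overlap but with a gap of only 0.24 ± 0.17 on the log2 scale (limma adjusted p = 0.523). Stat3 shares 72 exon bases with Stat5a on the other strand.

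The SOCS and CISH genes did not move together. Socs3 rose, Cish, Socs1, Socs6 and Socs7 had log2 fold changes between 0.09 and 0.40, and Socs2, Socs4 and Socs5 had log2 fold changes between -0.79 and -0.57, none of these past the test. Socs3 restrains signals through gp130 and JAK2, among others. It had 328 and 356 CPM in Th9+TLA1 libraries and 98.5 and 168 CPM in Th9 libraries. The Th9+TLA1 pair was tight, the Th9 pair spread, and the higher Th9 library still lay far below, with means of 342 ± 19.9 CPM in Th9+TLA1 and 133 ± 49.1 CPM in Th9 (SD). The log2 fold change of Socs3 (Entrez 12702, chromosome 11, 117966079 to 117970336) was 1.49 ± 0.25 (SE, n = 2 per group, limma adjusted p = 0.0158). It was not called without Th9 replicate 1, the library with its lowest level, where the log2 fold change was 1.07 (limma adjusted p = 0.0569), nor without a filter on low counts (0.0702). With the filter rerun on the 3 libraries left, it was missed without Th9+TLA1 replicate 2 (0.0533).

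Cish, a feedback gene of interleukin 2 and STAT5 signalling, had 535 and 463 CPM in Th9+TLA1 and 379 and 422 CPM in Th9. The groups did not overlap, and the log2 fold change of 0.40 ± 0.18 did not pass (limma adjusted p = 0.281). Socs1, which blocks JAK1, JAK2 and TYK2 directly, had 165 and 126 CPM in Th9+TLA1 and 147 and 140.5 CPM in Th9, and the Th9 values fell between the Th9+TLA1 values. Socs2, known as a brake on growth hormone signalling, had 127 and 143 CPM in Th9+TLA1 and 249 and 184 CPM in Th9. Both Th9+TLA1 values were below both Th9 values, with a log2 fold change of -0.57 ± 0.20 (limma adjusted p = 0.191).

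Socs4, Socs5, Socs6 and Socs7 were at low levels. Socs4 had 8.73 and 9.74 CPM in Th9+TLA1 and 18.1 and 17.4 CPM in Th9, without overlap (log2 fold change -0.79 ± 0.45, limma adjusted p = 0.407). Socs5 had 8.39 and 12.7 CPM in Th9+TLA1 and 34.4 and 9.47 CPM in Th9. Its Th9 libraries differed more from each other than those of any other tested member, and its log2 fold change of -0.68 was 0.16 without Th9 replicate 1. Socs6 had 33.9 and 26.9 CPM in Th9+TLA1 and 26.5 and 29.7 CPM in Th9, and Socs7 had 40.9 and 34.7 CPM in Th9+TLA1 and 50.5 and 27.5 CPM in Th9, with overlap in both.

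Per kilobase of merged exons, Socs3 was the most abundant of the 8 genes in both Th9+TLA1 libraries and Cish in both Th9 libraries. Socs3 made up 40.8% and 46.6% of their summed CPM per kb in Th9+TLA1, against 18.2% and 28.8% in Th9. Cish made up 30.0% and 27.3% in Th9+TLA1, against 31.6% and 32.6% in Th9. These shares depend on the annotated exons, since the merged model of Cish holds 6419 bases and that of Socs3 2891.

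**Figure D3:**
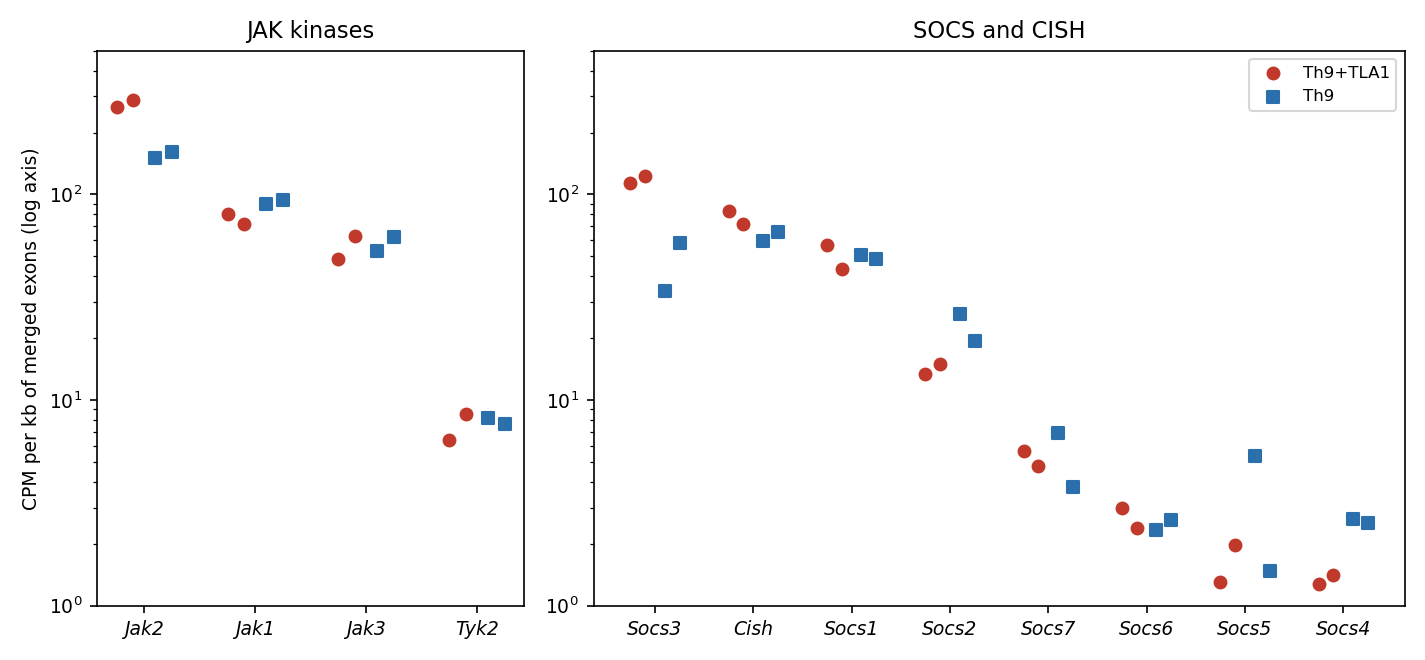
CPM per kilobase of merged exons (log axis) in each library for the JAK genes and for the SOCS and CISH genes (circles Th9+TLA1, squares Th9). Jak2 is the highest kinase throughout, and Socs3 lies above Cish in both Th9+TLA1 libraries and below it in both Th9 libraries.

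The other restraining genes of the set stayed close between groups. Ptpn2, a phosphatase that acts on JAK1, JAK3 and STATs in the nucleus and cytoplasm, had 269 and 231 CPM in Th9+TLA1 and 241 and 256 CPM in Th9. Ptpn6, which encodes the phosphatase SHP-1, had 269 and 202 CPM in Th9+TLA1 and 279 and 289 CPM in Th9. Pias1, a SUMO ligase that restrains STAT signalling, had 80.9 and 88.6 CPM in Th9+TLA1 and 115 and 95.7 CPM in Th9. In the deposited CPM the groups overlapped for Ptpn2, while Ptpn6 and Pias1 were lower without overlap in Th9+TLA1. The log2 fold changes of 0.09 ± 0.18, -0.19 ± 0.20 and -0.22 ± 0.21 did not pass (limma adjusted p between 0.668 and 0.847).

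The PIM kinases are survival kinases that need no activation step, so that their amount sets their activity. Pim2 had 598 and 493 CPM in Th9+TLA1 libraries and 262 and 331 CPM in Th9 libraries, with a wide gap between the groups and means of 545.5 ± 74.8 and 296 ± 48.6 CPM (SD). The log2 fold change of Pim2 (Entrez 18715, chromosome X, 7878306 to 7883432) was 0.97 ± 0.20 (SE, n = 2 per group, limma adjusted p = 0.0382). Pim1 had 22.2 and 20.8 CPM in Th9+TLA1 and 41.3 and 26.2 CPM in Th9. Its Th9+TLA1 values were the lower ones, with a log2 fold change of -0.51 ± 0.35 (limma adjusted p = 0.511). Per kilobase of merged exons Pim2 made up 97.0% and 96.6% of the summed level of both genes in Th9+TLA1 and 88.4% and 93.8% in Th9. Pim2 was the least stable of the called members: it was not called with total count scaling (adjusted p = 0.0646), with edgeR's quasi-likelihood test (0.0512), without Th9 replicate 1 (limma adjusted p = 0.165), without Th9+TLA1 replicate 1 (0.227) or without a filter on low counts (0.108). With the filter rerun on the 3 libraries left, none of the 4 omissions gave a call (0.0776 to 0.140).

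**Figure D4:**
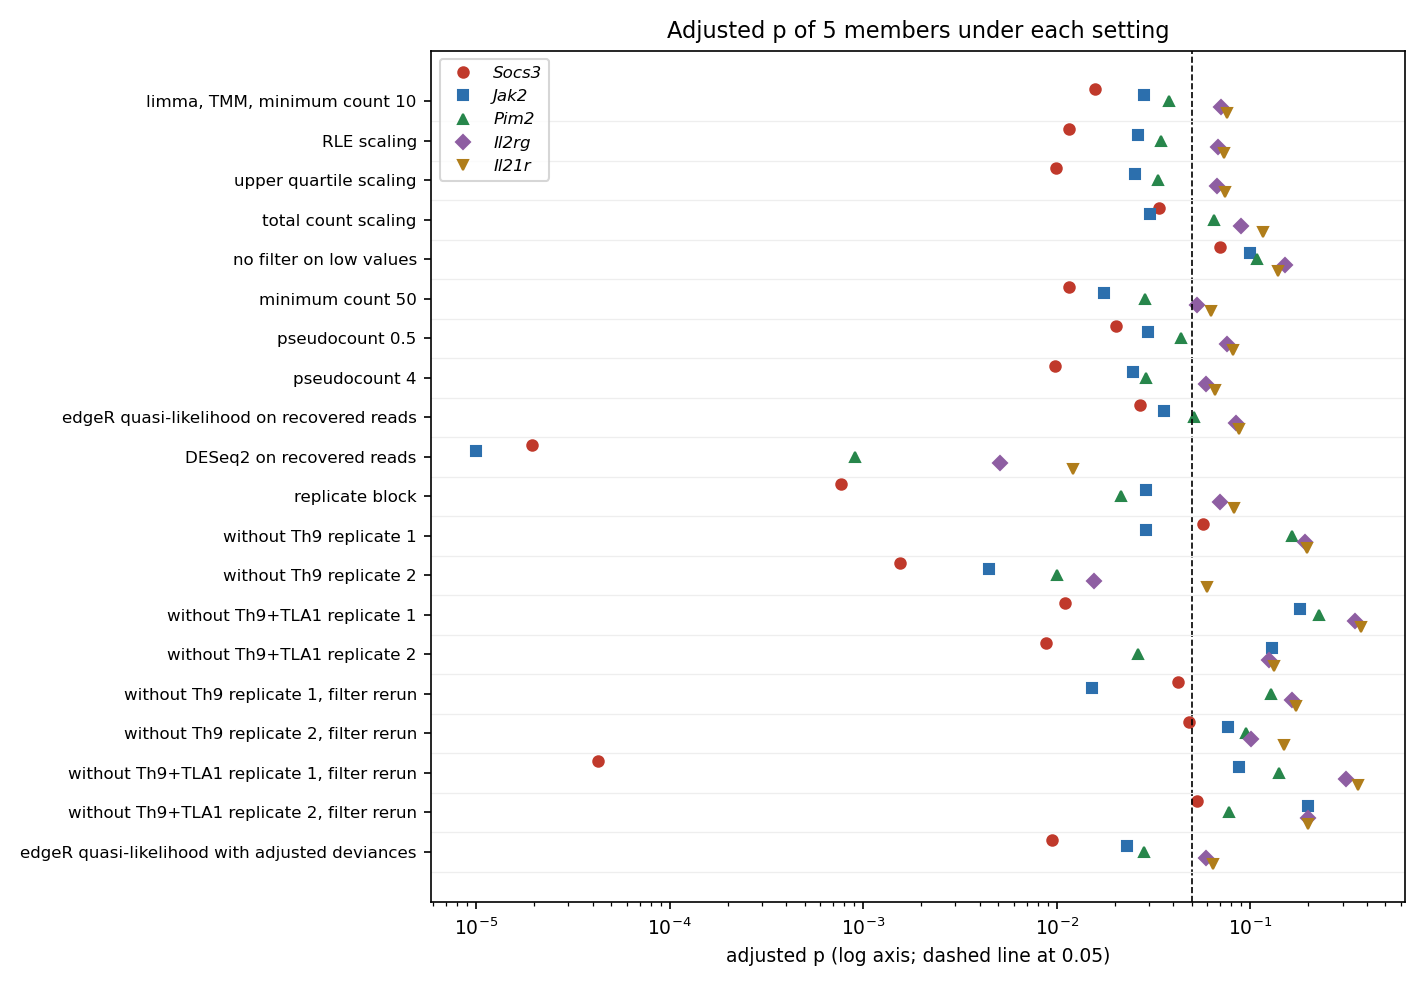
Adjusted p (log axis; dashed line at 0.05) of Socs3, Jak2, Pim2, Il2rg and Il21r in the limma fit (top row) and under each alternative. Socs3 stayed called in 16 of 19 alternatives, Jak2 in 13 and Pim2 in 10, and Il2rg and Il21r were called in 2 and 1.

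A wider list of 90 genes covered the rest of the pathway, and 54 of them had enough reads to be tested. Il9, Il21, Il17f and Il12rb2 rose and none fell. These were 7.41% of the 54, against 1.14% of all tested genes called (0.891% higher and 0.252% lower). The median log2 fold change was 0.33. Il9 (limma adjusted p = 0.0261) was not called without either Th9+TLA1 library (0.327 without replicate 1, 0.125 without replicate 2) or without a filter on low counts (0.117). Among 12 tested ligands, Il21 had 97.3 and 70.1 CPM in Th9+TLA1 and 10.9 and 5.68 CPM in Th9 (log2 fold change 3.32 ± 0.38, limma adjusted p = 0.00171), beside the values of its receptor Il21r above. Il17f, a ligand of the Il17ra chain, had 75.5 and 39.6 CPM in Th9+TLA1 and 3.46 and 8.84 CPM in Th9 (log2 fold change 3.15 ± 0.50, limma adjusted p = 0.0118). Both were clearly higher in each Th9+TLA1 library, although Il17f was not called without Th9 replicate 1 (limma adjusted p = 0.0740), without Th9+TLA1 replicate 1 (0.0643) or without a filter on low counts (0.0640). With the filter rerun on the 3 libraries left, Il9, Il21 and Il17f were also missed without Th9 replicate 2 (0.0734, 0.0791 and 0.0912). Il4 and Il13, the ligands of Il4ra, were higher without overlap in Th9+TLA1 and did not pass, with 24.8 and 42.2 CPM of Il4 in Th9+TLA1 against 5.44 and 18.9 CPM in Th9, and 9.73 and 12.7 CPM of Il13 against 1.98 and 2.21 CPM. Il22, whose receptor uses the Il10rb chain, had 20.5 and 4.54 CPM in Th9+TLA1 and 0 reads in both Th9 libraries. It missed the threshold in limma (adjusted p = 0.0789) but was called by edgeR's quasi-likelihood test, by DESeq2 and by limma with the replicate number as a block. The edgeR test with adjusted deviances did not call Il22, nor did limma under the scaling and pseudocount alternatives. Ligands that signal through gp130 were present as Lif, with 137 and 159 CPM in Th9+TLA1 and 125 and 108 CPM in Th9, and as Osm, with 43.0 and 35.4 CPM in Th9+TLA1 and 45.8 and 29.4 CPM in Th9. Lif was higher without overlap and did not pass (limma adjusted p = 0.304), and Osm overlapped. Lifr and Osmr, the partner chains of gp130 for Lif and Osm, had at most 3 reads and 1 read in any library. Il6 had at most 1 read in any library and Il27 none.

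Of 30 other receptor chains, 14 had 0 reads in all 4 libraries, among them Il23r, Il22ra1 and Il17rc. Il12rb2, the chain of the interleukin 12 receptor that uses JAK2, rose, with 428 and 349 CPM in Th9+TLA1 and 78.9 and 196 CPM in Th9 (log2 fold change 1.72 ± 0.34, limma adjusted p = 0.0352). It was not called by edgeR's quasi-likelihood test (adjusted p = 0.0667) or DESeq2 (0.223), nor by limma with total count scaling (0.0696), without a filter on low counts (0.118) or without Th9 replicate 1 (0.0797, or 0.0572 with the filter rerun; log2 fold changes 1.03 and 1.02). The edgeR test with adjusted deviances did call Il12rb2. Its exons overlap Serbp1 on the other strand. Its partner Il12rb1, which uses TYK2, had 137 and 94.8 CPM in Th9+TLA1 and 113 and 86.5 CPM in Th9, overlapping. Il2ra, the high-affinity chain for interleukin 2, was at 3599 and 3564 CPM in Th9+TLA1 and 2977 and 3137 CPM in Th9 (limma adjusted p = 0.437).

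No gene listed under other negative regulators or STAT targets was called by limma or by edgeR's quasi-likelihood test. DESeq2 called Bcl3 and Ccnd2. At an unadjusted limma p under 0.05, 4 of 17 tested under negative regulators and 4 of 14 under STAT targets were higher and none lower. Over all tested genes, 8.54% were higher and 8.14% lower at that cut. Stat5a had 475 and 473 CPM in Th9+TLA1 and 442 and 400.0 CPM in Th9 (limma adjusted p = 0.460), and Stat5b, with 601 and 749 CPM in Th9+TLA1 and 649 and 671 CPM in Th9, overlapped. The list of negative regulators also holds genes with other roles, such as the kinase gene Pim3. In that list Pias2, Stam and Usp18 had the smallest p, with log2 fold changes of 0.59 ± 0.20, 0.75 ± 0.28 and 0.70 ± 0.27. Pias4 had the largest log2 fold change of that list, 0.79 ± 0.38, without overlap (limma adjusted p = 0.325). Pim3, the remaining PIM kinase, had 162 and 99.3 CPM in Th9+TLA1 and 74.2 and 96.0 CPM in Th9, a narrow gap (log2 fold change 0.67 ± 0.27, limma adjusted p = 0.239). Among the STAT targets Bcl3, Ccnd2 and Gfi1 had the smallest p. Bcl3, which encodes an atypical member of the IkB family, had 137 and 107 CPM in Th9+TLA1 and 66.6 and 67.6 CPM in Th9 (log2 fold change 0.93 ± 0.23, limma adjusted p = 0.077). Ccnd2, which encodes cyclin D2, had 1005 and 930.2 CPM in Th9+TLA1 and 669.5 and 650.4 CPM in Th9 (log2 fold change 0.64 ± 0.17, limma adjusted p = 0.103). Gfi1 had 111 and 68.8 CPM in Th9+TLA1 and 63.6 and 45.1 CPM in Th9 (log2 fold change 0.79 ± 0.28, limma adjusted p = 0.204).

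The members' replicates were closer than those of genes at large. The median gap between replicates on the log2(CPM + 1) scale was 0.23 for Th9+TLA1 and 0.20 for Th9 over the 35 tested members, and 0.30 and 0.33 over all tested genes, whose levels are lower in many cases. Il6st and Il6ra had the widest gaps in Th9+TLA1, 1.22 and 1.14, and Socs5 the widest in Th9, 1.76.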

How the data were processed

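The 4 libraries of mouse T cell RNA were read on an Ion Torrent instrument after SMARTer low-input cDNA synthesis, per the labels' protocols. HTSeq 0.5.4, edgeR and mm10 appear in the submitters' processing notes, which give no aligner or annotation. The authors deposited CPM, 1 file per library, and 100% of non-zero values were whole multiples of 1 read (tolerance 0.01 of a read), so whole reads could be recovered; read counts in genes ran from 2979482 to 4041633. Reads of amplified cDNA are not independent molecules, so floors cover counting error only.

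Symbols came from a RefSeq table of GRCm38.p6 (23383 of 23480 identifiers matched) and exon lengths from GENCODE M21, all exons of a gene merged. Genes were filtered with filterByExpr (minimum count 10), CPM divided by TMM factors (0.964 to 1.06), and log2(CPM + 1) fitted with limma (trend) on the group, adjusted over 10324 genes. On the recovered reads edgeR's quasi-likelihood test called 110 genes (161 with adjusted deviances) and DESeq2 273, against 118 by limma. Values were given for every member, and in the wider lists for called genes or, with none called, the 3 smallest p; other names there were chosen after values were seen, and 1 gene of those lists is not reported here. Members, lists and motifs were chosen with earlier results of these data known. The scripts were tested on simulated data. Replicates differed by 7.64 (Th9+TLA1) and 12.6 (Th9) times sampling noise (chi-square per degree of freedom), so none was a copy. Alternatives were scaling, filter, pseudocount (0.5 and 4), test, replicate block and leaving out each library. Python 3.11.15 (numpy 2.4.6, pandas 2.3.3, matplotlib 3.10.9) and R 4.3.3 (DESeq2 1.42.0, edgeR 4.0.16, limma 3.58.1) were used.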

Additional observations from a re-analysis of the deposited data

How the results depend on the processing

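Of the 35 tested members, 24 kept the sign of their log2 fold change in all 19 alternatives; Socs3, Jak2 and Pim2 were among them (1.06 to 1.93, 0.83 to 1.03 and 0.76 to 1.20). The 3 called members became 0 without a filter on low counts, where 13947 genes were tested, and 5 with DESeq2, all higher; leaving out a library gave 0 to 5, and between 0 and 5 higher. The 4 called wider genes became 1 without a filter and 1 to 7 without a library. All called genes, 118 (92 higher, 26 lower), numbered 73 (52 higher) with total count scaling, 33 (25 and 8) without a filter and 273 (182 and 91) with DESeq2; the lower ones numbered 43 with upper quartile scaling, 41 with a pseudocount of 4 and 44 with edgeR's adjusted deviances. Leaving out a library gave 31 to 312 called, 30 to 233 higher and 1 to 129 lower. Rerunning the filter on the 3 libraries left, an alternative added after seeing the data like edgeR's adjusted deviances, gave 42 called (39 higher, 3 lower) without Th9 replicate 1, 19 (19 and 0) without Th9 replicate 2, 155 (68 lower) without Th9+TLA1 replicate 1 and 96 (50 and 46) without Th9+TLA1 replicate 2. A group left with 1 library is assumed to vary like the other. Total count scaling moved the median of all genes to -0.10 and turned Ifnar1 (-0.046) and Jak3 (-0.057); Tyk2 was 0.0033 with edgeR, 0.0056 with DESeq2 and 0.0052 with adjusted deviances. Leaving out a library turned the sign of Il6st (-0.49 to 0.71), Ifngr1 (-0.079 to 0.077), Ifnar1 (-0.28 to 0.38), Ifnar2 (-0.14 to 0.50), Jak3 (-0.14 to 0.21), Tyk2 (-0.20 to 0.18), Socs1 (-0.11 to 0.30), Socs5 (-1.51 to 0.16), Socs7 (-0.27 to 0.49), Ptpn2 (-0.0205 to 0.21) and Ptpn6 (-0.41 to 0.0197), none of them called. With the filter rerun, the turned values were -0.11 and -0.49 for Il6st, 0.0801 and 0.0339 for Ifngr1, -0.28 and -0.10 for Ifnar1, -0.14 for Ifnar2, -0.1251 and -0.1436 for Jak3, 0.18 for Tyk2, -0.11 for Socs1, 0.153 for Socs5, -0.27 and -0.0164 for Socs7, -0.0198 for Ptpn2 and 0.0192 for Ptpn6. Where no cause is named, the cause was not tested.

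The replicate numbers were checked for pairing: deviations of same-numbered libraries correlated at -0.01 over tested genes. With 2 libraries a group, that value cannot show whether same-numbered libraries shared an animal, culture or batch. With the replicate number as a block 225 genes were called, 147 higher and 78 lower, with 3 members called. With 2 libraries a group and 2979482 to 4041633 reads, genes below the filter such as Il9r and Il13ra1 could not be compared.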
